A study of Mus musculus with 27 samples.

Results

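The genes described here make prostaglandins, sense them and break them down. The set named 9 mouse genes: Ptgs1, Ptgs2, Ptges, Ptges2, Pla2g4a, Hpgd, Ptgr1, Ptger2 and Ptger4. A gene was measured through a probe set annotated to its symbol alone, and 8 of the 9 had 1 such probe set among 19938 genes tested. Ptgs1 was matched to none and was not analysed here. Total RNA came from TAMH cells, a line of mouse hepatocytes derived from mice transgenic for transforming growth factor alpha, so every group carried that transgene and came from 1 line. All cultures were confluent, at passages between 25 and 35, in serum-free medium with dexamethasone, nicotinamide, gentamicin, insulin, transferrin and selenium. They received 2 mM acetaminophen (APAP), 2 mM AMAP or control medium, and were harvested at 2, 6 or 24 h, with 2 dishes for each treatment. AMAP is the isomer of acetaminophen whose ring hydroxyl stands meta instead of para to the amide, and it is the less hepatotoxic compound in mice. Each of the 9 groups held 3 Affymetrix Mouse Gene 1.0 ST arrays, whose titles end in P30, P31 and P32; whether the number is the passage is not stated.

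Cytosolic phospholipase A2, encoded by Pla2g4a, frees arachidonate from membranes, and the cyclooxygenases Ptgs1 and Ptgs2 oxidise it to prostaglandin H. Ptges and Ptges2 encode prostaglandin E synthases, and Ptger2 and Ptger4 encode prostaglandin E receptors that raise cyclic AMP. Hpgd encodes 15-hydroxyprostaglandin dehydrogenase, which begins prostaglandin inactivation, and Ptgr1 encodes a reductase that acts on its 15-keto products. Acetaminophen is known to lower prostaglandin synthesis by acting on cyclooxygenase activity. The arrays measured mRNA, and neither enzyme activity nor prostaglandin was measured.

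The sequences around the start sites of the 3 genes with a called treatment difference are given to show what lies there. They are from RefSeq, build GRCm38.p6, and run 5′ to 3′ on the gene's strand from 100 bases before the annotated start to 30 after it. Ptgs2 lies at chr1:150099931-150100060 on the plus strand, Ptges at chr2:30903268-30903397 on the minus strand and Hpgd at chr8:56294452-56294581 on the plus strand. Capitals mark matches to the motifs searched.
Ptgs2: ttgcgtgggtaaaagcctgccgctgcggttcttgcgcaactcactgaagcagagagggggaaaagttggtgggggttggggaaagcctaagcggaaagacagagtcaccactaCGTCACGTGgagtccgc
Ptges: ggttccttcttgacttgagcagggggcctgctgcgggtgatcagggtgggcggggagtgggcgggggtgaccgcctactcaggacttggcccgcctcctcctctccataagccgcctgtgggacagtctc
Hpgd: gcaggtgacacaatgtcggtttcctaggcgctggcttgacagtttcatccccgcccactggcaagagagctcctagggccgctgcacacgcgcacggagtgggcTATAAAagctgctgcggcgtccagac

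Both strands were searched over 300 bases, 250 before and 50 after each annotated start, in all 8 genes and in 32851 RefSeq promoters. The Ptgs2 window held the E-box CACGTG at bases 17 to 22 after the annotated start, and 7.15% of promoters held one. It overlapped a match to TGACG, the core of the cyclic AMP response element, on the other strand at bases 14 to 18, which 20.8% of promoters held. That core was added to the search after the sequences were seen. Hpgd held the TATA box TATAAA at bases 5 to 10 after its annotated start, and 13.6% of promoters held it. The Ptges window held none of the motifs. Among the other genes, Ptges2 held CACGTG, while Ptger2, Ptger4, Ptgr1 and Pla2g4a held CCAAT, a motif found in 37.4% of promoters, and Pla2g4a also held TATAAA, both of its matches lying at the second of its annotated starts. No window held the full cyclic AMP response element TGACGTCA (1.79% of promoters) or the AP-1 motif TGANTCA (7.81%). A match describes letters only, and binding was not measured.

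All values below are deposited log2 expression values, and a difference of 1 is a doubling. Medians of the 27 arrays over all genes lay between 7.25 and 7.36, and replicate arrays correlated at 0.992 to 0.997 across genes. The hepatocyte label was checked against 12 marker genes, whose median stood at the 97.3 percentile of all genes; albumin (Alb) averaged 13.71. Cyp2e1, a cytochrome P450 that oxidises acetaminophen in liver, averaged 5.18 and stood at the 13.3 percentile. The median percentiles of 10 macrophage and leukocyte and 6 endothelial markers were 22.4 and 25.4, and those of 8 fibroblast and stellate and 5 biliary markers were 50.5 and 78.7. Of all 41 matched markers, 3 passed the test in a treatment comparison. The macrophage marker Cd14 was lower at 6 h against control under APAP (-0.40 ± 0.08) and AMAP (-0.34 ± 0.08), the time of the Hpgd call. At 24 h, the time of the Ptges calls, the fibroblast marker Vim (-0.24 ± 0.07) and the biliary marker Sox9 (-0.35 ± 0.11) were lower under APAP than control, and Sox9 was also lower under APAP than AMAP (-0.47 ± 0.11). Cd14 itself stood at the 95.2 percentile of all genes and Vim at the 99.7, far above the medians of their lists, while Sox9 stood at the 70.6. Mean group levels ranged from 6.41 to 6.54 for the macrophage list, 8.09 to 8.27 for the fibroblast list and 8.82 to 9.47 for the biliary list, and their part in the results below was not tested.

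A gene was called when its limma p, adjusted by the Benjamini-Hochberg method over all 19938 genes of the comparison, was under 0.05. Against control, APAP lowered Hpgd at 6 h and raised Ptges at 24 h, and no other difference of the 8 genes from control was called under APAP or AMAP. Between the isomers, Ptgs2 was higher under APAP at 6 h and Ptges at 24 h. The members called under APAP against control were therefore 0 of 8 at 2 h, 1 of 8 at 6 h and 1 of 8 at 24 h, where 0.682%, 2.5% and 9.33% of all genes were called. Under AMAP the count was 0 of 8 at each time, against 0.181%, 0.456% and 0.727% of all genes. In the direct comparison of APAP with AMAP it was 0, 1 and 1 of 8 at 2, 6 and 24 h, against 0.261%, 0.707% and 4.65%. At 24 h, 1 of 8 is near the share of all genes called under APAP. At an unadjusted p under 0.05 the counts were 1, 2 and 2 for APAP, 1, 2 and 0 for AMAP, and 1, 2 and 3 for APAP against AMAP. Of all genes, 9.26%, 12.3% and 22.3% passed it for APAP and 6.8%, 9.47% and 11.2% for AMAP. Between the isomers 9.33%, 7.41% and 18.9% of all genes did. The numbers may mark separate passages, but the labels do not say that the 3 arrays of a group came from separate cultures. The p-values measure the spread between these arrays, which may be technical.

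**Figure D1:**
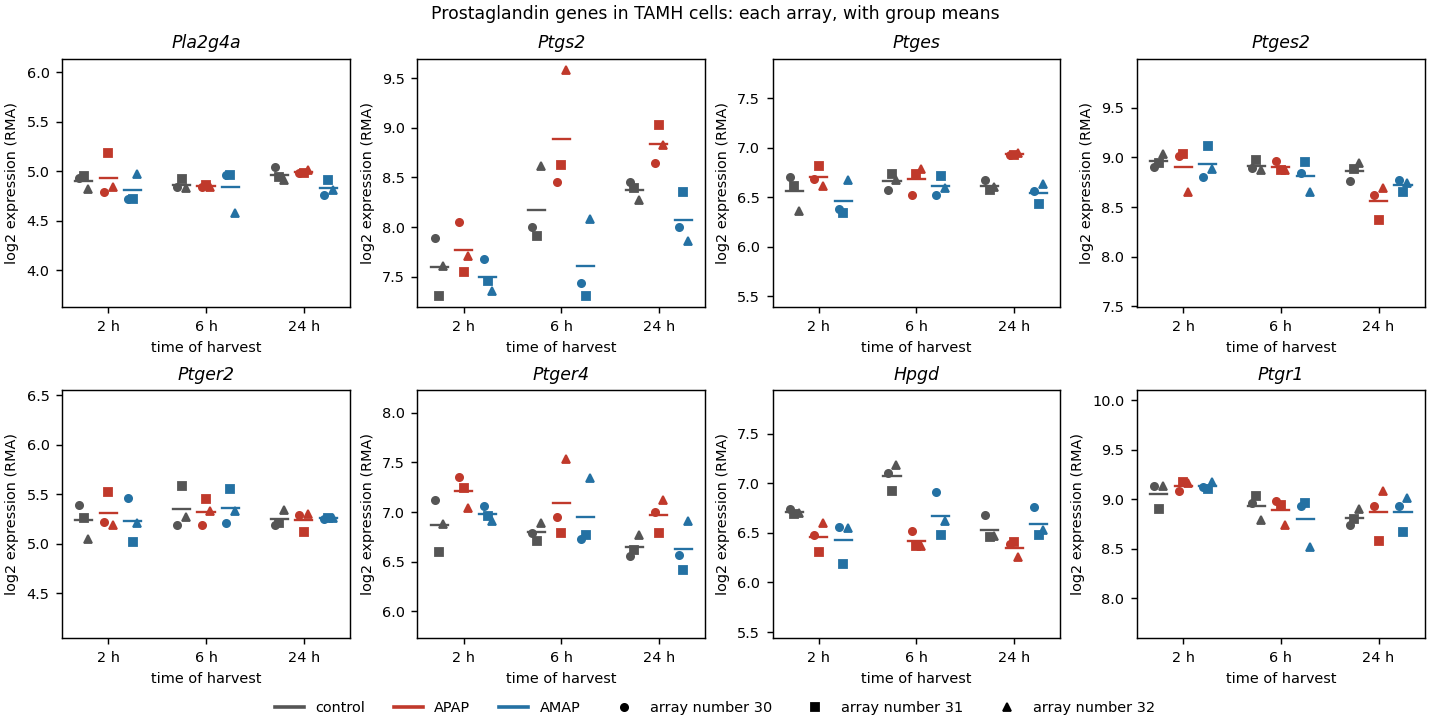
Deposited log2 expression (vertical axis) of the 8 genes at 2, 6 and 24 h (horizontal axis) in control, APAP and AMAP cultures; each point is 1 array, its shape gives the array number, and each bar is the mean of 3 arrays. All panels span the same number of log2 units, and the group means of Ptgs2 spread over 1.39 units while those of Ptger2 spread over 0.14.

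No difference in Pla2g4a mRNA was called, on a dim probe set. Its 27 values lay between 4.58 and 5.18, and its group means spanned 0.19. The difference between APAP and control was 0.04 ± 0.10 (SE; n = 3 arrays a group, as throughout) at 2 h, -0.02 ± 0.10 at 6 h and 0.03 ± 0.10 at 24 h. With AMAP the differences were -0.09, -0.03 and -0.14, each ± 0.10. None reached an unadjusted p of 0.05 in limma, and the 95% interval of the APAP difference at 24 h ran from -0.18 to 0.23. At 24 h all 3 APAP arrays lay above all 3 AMAP arrays, by 0.17 ± 0.10 on average (adjusted p = 0.376).

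Ptgs2, the inducible cyclooxygenase gene, varied most of the 8. In control cultures its arrays read 7.89, 7.31 and 7.61 at 2 h, 8.0, 7.91 and 8.61 at 6 h, and 8.46, 8.39 and 8.27 at 24 h (arrays 30, 31 and 32 in this order, as in all such lists). In APAP cultures they read 8.05, 7.55 and 7.71 at 2 h, 8.46, 8.63 and 9.59 at 6 h, and 8.65, 9.02 and 8.83 at 24 h. In AMAP cultures they read 7.67, 7.46 and 7.36 at 2 h, 7.44, 7.30 and 8.09 at 6 h, and 8.0, 8.36 and 7.86 at 24 h. At 6 h the 3 treatments were ordered AMAP, control, APAP within each number, and array 32 stood highest in all 3. Control overlapped both compounds at 6 h, whereas the APAP and AMAP arrays did not overlap.

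At 6 h Ptgs2 was higher under APAP than under AMAP by 1.28 ± 0.23 (SE), or 2.43-fold, with a 95% interval from 0.80 to 1.76 and a limma adjusted p of 0.00507. The difference was 1.02, 1.33 and 1.50 within numbers 30, 31 and 32. Against control the sizes were 0.72 ± 0.23 for APAP (adjusted p = 0.121) and -0.57 ± 0.23 for AMAP (adjusted p = 0.415), so neither was called. The APAP difference from control was positive within every number (0.45, 0.72 and 0.98) and the AMAP difference negative within every number (-0.57, -0.61 and -0.53). Array 32 stood above the group mean at 6 h by 0.54 on average over the 3 treatments. Without APAP array 32 the APAP difference from control was 0.37 (adjusted p = 0.54), and without control array 32 the AMAP difference was -0.35 (adjusted p = 0.694). With the number as a block over all times neither was called (adjusted p = 0.096 and 0.326). A block for the number within each time, an alternative chosen after the data were seen, gave adjusted p = 0.000271 for APAP and 0.00541 for AMAP against control.

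The Ptgs2 difference between the isomers at 6 h rested in part on single arrays. Without APAP array 32 it was 0.93 (adjusted p = 0.0536), and leaving out number 30 or 31 from all groups gave 1.41 (adjusted p = 0.0781) and 1.26 (adjusted p = 0.12). With number 32 left out at 6 h alone it was 1.17 (adjusted p = 0.00172), and with a fit to the 6 arrays of the comparison the adjusted p was 0.182.

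The order of Ptgs2 levels at 24 h was again AMAP, control, APAP by group mean, at 8.07, 8.37 and 8.83. All 3 APAP arrays lay above all control and all AMAP arrays, while control and AMAP overlapped. The APAP difference was 0.46 ± 0.23 from control (adjusted p = 0.248) and 0.76 ± 0.23 from AMAP (95% interval 0.28 to 1.24, adjusted p = 0.0597), neither of them called. At 24 h the array numbers paired APAP with AMAP arrays, and with the number as a block the difference from AMAP was called (adjusted p = 0.0468). Fitted to the 6 arrays of each comparison alone, the APAP differences gave adjusted p = 0.038 against control and 0.0255 against AMAP. The difference from AMAP was called in 6 of 20 alternatives. It was called in 0 of the 6 that left out a single array (0.66 to 0.9, adjusted p up to 0.194). Leaving out a number in all groups gave adjusted p up to 0.231. Against control, the only other alternative called was the block within each time (adjusted p = 0.00472). At 2 h the groups overlapped, and APAP differed from control by 0.17 ± 0.23 and from AMAP by 0.27 ± 0.23.

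**Figure D2:**
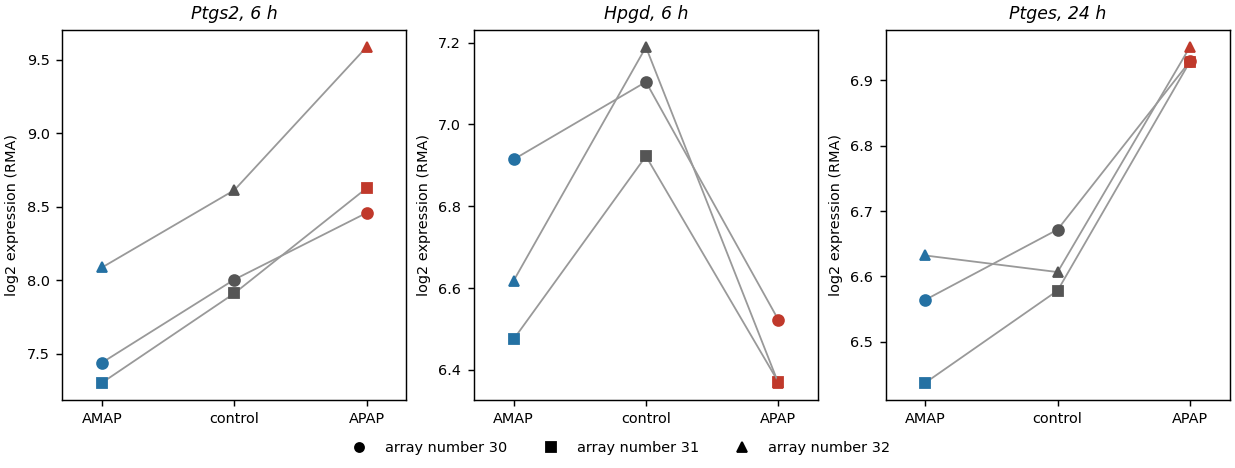
Log2 expression of Ptgs2 and Hpgd at 6 h and of Ptges at 24 h (vertical axes, each with its own range) in AMAP, control and APAP cultures; each point is 1 array and lines join arrays of the same number. The Ptgs2 lines run from AMAP up to APAP at all 3 numbers with number 32 on top, every Hpgd line is highest in control, and the 3 Ptges values under APAP lie together at 6.93 to 6.95.

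Ptges, which encodes the inducible microsomal prostaglandin E synthase, was higher under APAP at 24 h than in control or AMAP cultures. Its arrays at 24 h read 6.67, 6.58 and 6.61 in control, 6.93, 6.93 and 6.95 under APAP, and 6.56, 6.44 and 6.63 under AMAP. The APAP arrays stood above all others at that time, and control overlapped AMAP. The APAP difference from control was 0.32 ± 0.10 (95% interval 0.12 to 0.52, limma adjusted p = 0.0366), and that from AMAP was 0.39 ± 0.10 (95% interval 0.19 to 0.59, adjusted p = 0.0165). AMAP and control differed by -0.07 ± 0.10 (adjusted p = 0.85).

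The Ptges call against control was lost without any 1 of the 6 arrays, at differences of 0.30 to 0.34 and adjusted p up to 0.122, and without each number in turn, up to 0.246. The difference from AMAP lost its call without AMAP array 31 (0.34, adjusted p = 0.0804), APAP array 32 (0.38, 0.0535), number 30 (0.41, 0.177) or number 31 (0.34, 0.208), and in a fit to the 6 arrays of the comparison (0.39, 0.0519).

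Ptges showed no called difference earlier. At 2 h its arrays read 6.71, 6.62 and 6.36 in control, 6.68, 6.82 and 6.61 under APAP, and 6.38, 6.34 and 6.68 under AMAP. At 6 h they read 6.57, 6.73 and 6.67 in control, 6.52, 6.74 and 6.78 under APAP, and 6.52, 6.72 and 6.59 under AMAP. All groups overlapped at both times, and APAP differed from control by 0.14 ± 0.10 at 2 h and by 0.02 ± 0.10 at 6 h. The APAP effect was 0.30 ± 0.14 larger at 24 h than at 6 h, which was not called (adjusted p = 0.676). The probe set of Ptges lay under the array medians and detection calls were not analysed, so its differences are given in log2 units without a fold; the same holds for Pla2g4a, Ptger2, Ptger4 and Hpgd.

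Ptges2, the second synthase, had its lowest mean under APAP at 24 h. Its arrays then read 8.63, 8.37 and 8.69 under APAP, 8.76, 8.89 and 8.94 in control, and 8.78, 8.65 and 8.74 under AMAP. Every APAP array lay below every control array, while APAP and AMAP overlapped. The difference from control was -0.30 ± 0.10 (95% interval -0.51 to -0.09), with an adjusted p of 0.0629, just outside the threshold. It passed the threshold in 6 of 20 alternatives, among them centring each array on its median (-0.34, adjusted p = 0.0257), and without APAP array 32 it was -0.37 (adjusted p = 0.0398). Without APAP array 31 it was -0.21 (adjusted p = 0.317), and without number 31 in all groups -0.19 (adjusted p = 0.45). At 2 and 6 h it differed from control by -0.06 ± 0.10 and -0.01 ± 0.10 under APAP. At 24 h the estimates for the 2 synthases thus had opposite signs under APAP, with the positive one called.

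Neither receptor was called in any comparison without a block for the array number. For Ptger4 the arrays read 7.12, 6.60 and 6.88 in control, 7.35, 7.24 and 7.04 under APAP and 7.06, 6.96 and 6.91 under AMAP at 2 h. They read 6.79, 6.70 and 6.89 in control, 6.95, 6.79 and 7.54 under APAP and 6.73, 6.77 and 7.35 under AMAP at 6 h. Control overlapped APAP at both times, and array 32 was the highest of each group at 6 h, by 0.31 above the group mean on average. At 24 h control read 6.56, 6.62 and 6.77, APAP read 7.0, 6.79 and 7.12, and AMAP read 6.57, 6.41 and 6.91. APAP lay above control at all 3 numbers there and did not overlap it. The APAP differences were 0.35, 0.30 and 0.32 (each ± 0.17) at 2, 6 and 24 h, with adjusted p of 0.541, 0.523 and 0.262. Without APAP array 32 the 6 h difference was 0.08 (adjusted p = 0.92). From AMAP the APAP arrays differed by 0.34 ± 0.17 at 24 h (adjusted p = 0.269), with 0.44, 0.38 and 0.22 within the numbers. The block within each time gave adjusted p = 0.0452 for this difference, where the numbers paired the arrays, and 0.042 for that from control, where they did not. Ptger2 stayed between 5.01 and 5.58 on all 27 arrays, its group means spanned 0.14, and its APAP differences were 0.08, -0.02 and -0.01 (each ± 0.12).

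Hpgd, the prostaglandin-degrading dehydrogenase, gave the clearest difference from control. At 6 h its arrays read 7.10, 6.92 and 7.19 in control, 6.52, 6.37 and 6.37 under APAP, and 6.91, 6.48 and 6.62 under AMAP. All APAP and all AMAP arrays lay below all control arrays, and the 2 compounds overlapped. APAP lowered Hpgd by 0.65 ± 0.11 log2 units (difference -0.65, 95% interval -0.88 to -0.42, limma adjusted p = 0.00136). The call held without each single array (-0.73 to -0.59, adjusted p at most 0.0117) and in 19 of 21 alternatives. It was lost without number 32 in all groups (-0.57, adjusted p = 0.0954) or at 6 h alone (-0.57, adjusted p = 0.0511).

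Under AMAP the Hpgd difference from control at 6 h was -0.40 ± 0.11 (95% interval -0.63 to -0.17), which was not called (adjusted p = 0.126). The array numbers paired AMAP with control arrays at 6 h, and with the number as a block it was called (adjusted p = 0.0254). The isomers differed from each other by -0.25 ± 0.11 at 6 h (95% interval -0.48 to -0.02, adjusted p = 0.61). An Hpgd effect of different size under the isomers was therefore not shown, and the interval includes sizes up to -0.48. Without AMAP array 30 the difference was -0.13 (adjusted p = 0.937).

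At 2 h Hpgd read 6.74, 6.69 and 6.70 in control, 6.48, 6.30 and 6.60 under APAP, and 6.56, 6.18 and 6.55 under AMAP. Both compounds lay wholly below control, with differences of -0.25 ± 0.11 under APAP (adjusted p = 0.491) and -0.28 ± 0.11 under AMAP (adjusted p = 0.6). Without APAP array 31 the first was -0.17 (adjusted p = 0.919), and without AMAP array 31 the second was -0.16 (adjusted p = 0.904). At 24 h it read 6.68, 6.46 and 6.46 in control, 6.39, 6.41 and 6.26 under APAP, and 6.76, 6.48 and 6.53 under AMAP. APAP again lay wholly below control (-0.18 ± 0.11, adjusted p = 0.372), while AMAP overlapped control at 0.06 ± 0.11. The control level was itself highest at 6 h, where it did not overlap 2 h or 24 h: 6 h stood above 2 h by 0.36 ± 0.11 (adjusted p = 0.186), and the difference of 24 h from 6 h was -0.54 ± 0.11 (adjusted p = 0.0981). APAP cultures had means of 6.46, 6.42 and 6.35 at the 3 times, so the 6 h difference from control coincided with the highest control value.

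Ptgr1, the reductase of the next step, gave no called difference. Its values lay between 8.52 and 9.17, and its APAP differences from control were 0.08, -0.04 and 0.05 (each ± 0.12) at 2, 6 and 24 h. Under AMAP they were 0.08, -0.12 and 0.06. None reached an unadjusted p of 0.05, and the APAP interval at 24 h ran from -0.20 to 0.30.

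**Figure D3:**
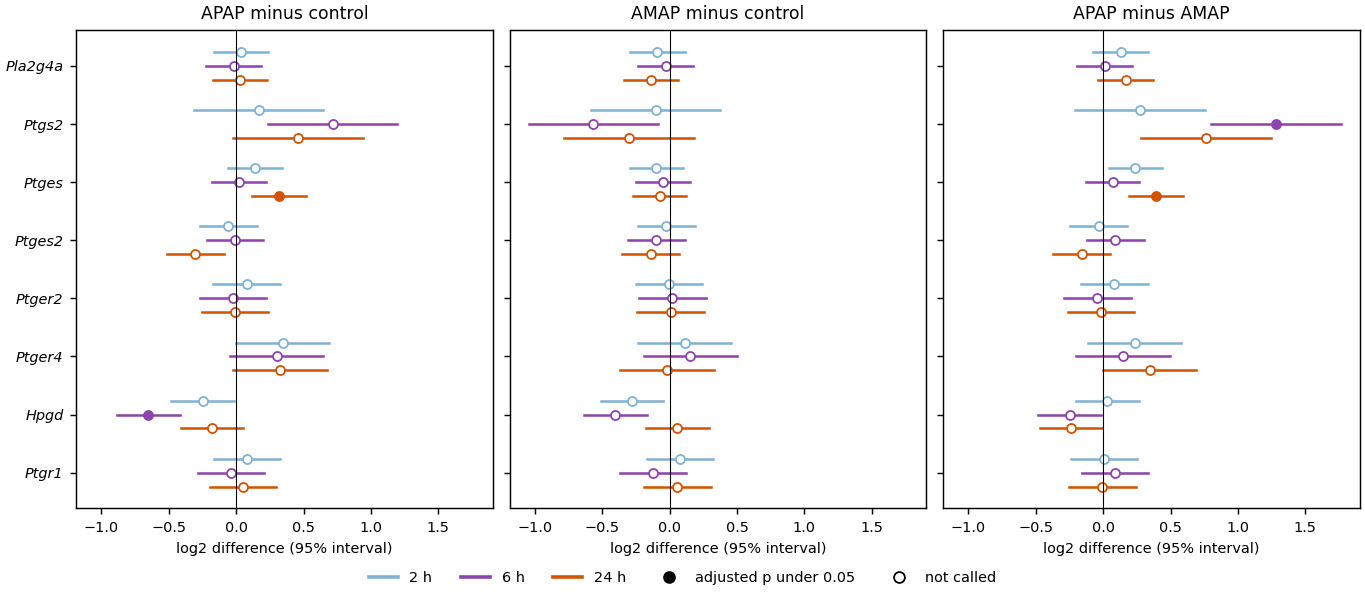
Log2 differences (horizontal axis) of the 8 genes for APAP minus control, AMAP minus control and APAP minus AMAP at 2, 6 and 24 h, with 95% intervals of the limma model from 3 arrays a group. Filled points are called: Hpgd at 6 h (-0.65) and Ptges at 24 h (0.32) against control, and Ptgs2 at 6 h (1.28) and Ptges at 24 h (0.39) between the isomers.

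Over 24 comparisons of the isomers, 8 genes at 3 times at the same dose, 2 were called. The intervals of the others give the sizes still allowed: at 24 h -0.25 to 0.24 for Ptgr1, -0.26 to 0.23 for Ptger2, -0.37 to 0.05 for Ptges2 and -0.003 to 0.69 for Ptger4. For Hpgd at 24 h the difference was -0.24 ± 0.11 (adjusted p = 0.248), and -0.15 without AMAP array 30 (adjusted p = 0.597). The arrays of the 2 groups did not overlap at 24 h for 4 of 8 genes between APAP and AMAP (Pla2g4a, Ptgs2, Ptges and Hpgd), where 22.4% of all genes did not overlap. Between APAP and control at 24 h this held for 5 of 8 (Ptgs2, Ptges and Ptger4 above control, Ptges2 and Hpgd below), where it held for 27% of all genes. At 2 h it held for 1 of 8 (Hpgd) under each compound against control, and for 17.6% (APAP) and 11.5% (AMAP) of all genes. At 6 h it again held for Hpgd alone against control, and for 16.3% (APAP) and 12.4% (AMAP) of all genes. Between the isomers it held at 6 h for Ptgs2 alone, and for 10.4% of all genes. It held for 0 of 8 between the isomers at 2 h, and for 14.4% of all genes. Between AMAP and control at 24 h it also held for 0 of 8, and for 19.4% of all genes. APAP and AMAP were compared with the same control arrays, so their differences from control are not independent.

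In control cultures none of the 8 genes was called between times, where 0.707% of all genes were called from 2 to 6 h, 0.015% from 6 to 24 h and 1.14% from 2 to 24 h. The largest control difference was that of Ptgs2, whose 24 h arrays all lay above its 2 h arrays, by 0.77 ± 0.23 (adjusted p = 0.102). Its 6 h arrays also lay above its 2 h arrays, by 0.57 ± 0.23 (adjusted p = 0.387). None of the 8 was called for a change of an effect between times either. For APAP, 0% of all genes were called for 6 h minus 2 h, 0.01% for 24 h minus 6 h and 0.356% for 24 h minus 2 h; for AMAP the shares were 0.00502%, 0% and 0%. The Hpgd effect of APAP differed by -0.40 ± 0.16 between 2 and 6 h (adjusted p = 1) and by 0.47 ± 0.16 between 6 and 24 h (adjusted p = 0.482). The AMAP effect on Hpgd differed by 0.46 ± 0.16 between 6 and 24 h (adjusted p = 0.999).

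Ranked by mean over the 9 groups, Ptgs2 ran from 8.89 (APAP at 6 h) and 8.83 (APAP at 24 h) through 8.37 (control at 24 h) down to 7.50 (AMAP at 2 h). Of its 8 pairs of neighbouring groups only APAP and control at 24 h did not overlap. Ptges ranked highest under APAP at 24 h (6.94) and next under APAP at 2 h (6.70), the only neighbours without overlap. Hpgd ranked highest in control at 6 h (7.07), apart from control at 2 h (6.71), and lowest under APAP at 24 h (6.35), with overlap between all other neighbours. For the other 5 genes every pair of neighbours overlapped.

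The genes whose 9 group means followed those of a called member most closely were sought among genes whose means spanned at least 0.5 log2 units, 2656 for Ptgs2 and Hpgd and 2657 for Ptges. For Ptgs2 these were Ccrl2, an atypical chemokine receptor (Pearson r = 0.98), Rhbdf2, which encodes a rhomboid-like regulator of the protease ADAM17 (0.942), and the cytokine gene Tnfsf18 (0.939). For Ptges they were Gmip (0.955), the epidermal growth factor receptor ligand Ereg (0.941) and Ap4b1 (0.93). For Hpgd they were Lrrc41 (0.943), the interferon-induced Ifit2 (0.919) and Palmd (0.917). These are descriptions over 9 group means that share arrays, chosen as the highest of many.

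The rest of the arachidonate pathway was followed through 6 lists, of whose 90 entries 86 were matched. At 24 h APAP raised 3 and lowered 10 of the 86 against control, 15.1%, where 9.33% of all genes were called. The median difference of the 86 was 0.00, against 0.02 for all genes. At 2 h 1 gene was higher (1.16%, against 0.682% of all genes), and at 6 h 1 was higher and 2 lower (3.49% against 2.5%). AMAP gave 1 lower gene at 2 h, 1 lower at 6 h, and 1 higher and 2 lower at 24 h. These were 1.16%, 1.16% and 3.49% of the 86, against 0.181%, 0.456% and 0.727% of all genes. Between the isomers 1, 0 and 8 of the 86 were called at 2, 6 and 24 h. The shares were 1.16%, 0% and 9.3%, against 0.261%, 0.707% and 4.65% of all genes. No test of a list as a whole was run. None of the 8 other prostanoid receptors and related genes was called in any of the 9 treatment comparisons.

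Of 30 genes of arachidonate supply, 3 (10%) were lower at 24 h under APAP and none higher, a share near the 9.33% of all genes called. Among them were Fads1 and Fads2, the desaturases that build arachidonate, at -0.44 ± 0.08 (limma adjusted p = 0.00152) and -0.34 ± 0.09 (adjusted p = 0.0155). Both were also lower under APAP than AMAP (-0.60 and -0.59, adjusted p = 5.51e-05 and 0.000151). Under AMAP at 24 h both stood above control, not called (0.16 and 0.25, adjusted p = 0.499 and 0.246). In all, 4 of the 30 (13.3%) were lower under APAP than AMAP at 24 h, against 4.65% of all genes called. Acsl4, which couples arachidonate to coenzyme A, was lower under APAP than AMAP at 24 h (-0.49 ± 0.11, adjusted p = 0.00679); against control it differed by -0.12 under APAP (adjusted p = 0.57) and by 0.37 under AMAP (adjusted p = 0.107), neither called. Lpcat2, a lysophospholipid acyltransferase, was lower under AMAP at 2 h (-0.40 ± 0.08, adjusted p = 0.0331).

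Of 11 terminal synthases and related reductases, 2 were lower under APAP at 24 h (18.2%, against 9.33% of all genes called). They were the cytosolic synthase and p23 co-chaperone gene Ptges3 (-0.29 ± 0.07, adjusted p = 0.00964) and Cbr3 (-0.33 ± 0.10, adjusted p = 0.0268). Under AMAP at 24 h the carbonyl reductase Cbr1 was higher (0.39 ± 0.09, adjusted p = 0.039) and the aldo-keto reductase Akr1c18 lower (-0.58 ± 0.13, adjusted p = 0.0283). These 2 were 18.2% of the 11, against 0.727% of all genes. Akr1c18 was also below control under APAP at 24 h, not called (-0.39 ± 0.13, adjusted p = 0.0574). Between the isomers at 24 h Cbr1 was lower under APAP (-0.37 ± 0.09, adjusted p = 0.0186). Akr1c18, Ptges3 and Cbr3 were not called in that comparison (adjusted p = 0.451, 0.056 and 0.114). Of 8 clearance and transport genes, 2 were called under APAP at 24 h (25%, against 9.33% of all genes). APAP raised Abcc4, an exporter that carries prostaglandin E among other substrates (0.51 ± 0.11, adjusted p = 0.00459). APAP lowered the uptake carrier Slco3a1 (-0.49 ± 0.12, adjusted p = 0.0104). Under AMAP at 24 h both differed from control in the same direction, not called (0.39 and -0.26, adjusted p = 0.117 and 0.411). Neither was called between the isomers at 24 h (adjusted p = 0.588 and 0.319).

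In the list for the lipoxygenase and leukotriene branch, which also held epoxide hydrolase genes, the receptor gene Cysltr1 was lower under both compounds. At 6 h it fell by 0.68 under APAP and by 0.85 under AMAP (adjusted p = 0.00664 and 0.00551), and at 24 h by 0.54 and 0.86 (adjusted p = 0.0149 and 0.0026). Ephx1, microsomal epoxide hydrolase, rose under APAP at 24 h by 0.74 ± 0.10 (adjusted p = 1.63e-05) and stood 0.47 above AMAP (adjusted p = 0.00336). Aloxe3, an epidermal-type lipoxygenase gene, was higher under APAP than AMAP at 24 h (0.33 ± 0.10, adjusted p = 0.0431).

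The last list held 12 genes for decay or stability of AU-rich mRNAs, such as that of Ptgs2. APAP at 24 h raised 1 and lowered 3 of the 12 (33.3%, against 9.33% of all genes called). Zfp36, which encodes tristetraprolin, a factor that speeds decay of such mRNAs, rose by 0.86 ± 0.11 at 2 h (adjusted p = 4.57e-05) and by 0.53 ± 0.11 at 24 h (adjusted p = 0.00266). It stood above AMAP by 0.54 and 0.46 at these times (adjusted p = 0.0258 and 0.0143). The stabilising factor gene Elavl1 fell by 0.42 (adjusted p = 0.00981), Zfp36l1 by 0.37 (adjusted p = 0.00701) and Hnrnpd by 0.31 (adjusted p = 0.017) at 24 h. None of these genes was called between the isomers at 24 h (adjusted p = 0.208, 0.0535 and 0.0964). Hnrnpd was also lower under APAP at 6 h (-0.31, adjusted p = 0.0456). Under AMAP at 6 h Hnrnpd differed from control by -0.35 ± 0.08, which was not called (adjusted p = 0.0611). The isomers differed by 0.04 ± 0.08 for Hnrnpd at 6 h (adjusted p = 0.982). Stability of Ptgs2 mRNA was not measured.

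**Figure D4:**
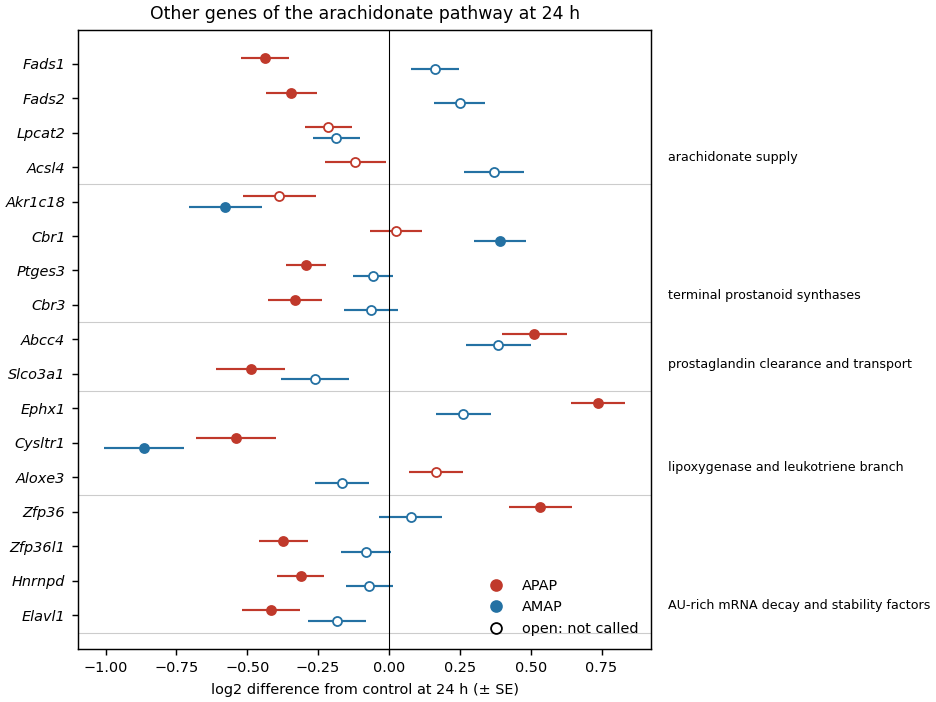
Log2 difference from control at 24 h (horizontal axis, ± SE, 3 arrays a group) for the 17 other pathway genes named in the text, under APAP and AMAP, grouped by list; filled points are called and open points are not. Ephx1 (0.74), Zfp36 (0.53) and Abcc4 (0.51) are the called genes to the right of 0 under APAP, and Cysltr1 is filled to the left for both compounds.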

How the data were processed

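Affymetrix Expression Console 1.1 and RMA are named in the submitters' processing notes. The authors deposited 1 log2 value for each of 35557 probe sets on 27 arrays; base 2 was inferred from how far the values extend. The annotation listed 23410 probe sets, 21789 of them with 1 gene symbol; for 999 genes with several, that of the highest mean was kept. limma 3.58.1 in R 4.3.3 fitted 9 group means (18 residual degrees of freedom, prior 7.3), with no filter or further normalization and two-sided tests. The comparisons with control were checked on simulated data with independent arrays. That check covered neither the comparisons between the isomers nor pairing of arrays by number. Array number limits the precision: the median SE of a treatment difference was 0.10. Each array's deviations from its group means were correlated across genes between same-numbered arrays of the 2 groups. The numbers were taken to pair arrays where this correlation was above 0.1 for every number, which held in 5 of 9 treatment comparisons. Named pathway genes were at most 4 a list with the smallest p. Members and lists were chosen with earlier results of these data known. No 2 arrays held identical values.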

Additional observations from a re-analysis of the deposited data

Results flagged for a closer look

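The effects of APAP and AMAP against the same control differed for 2 genes, by the direct test of APAP against AMAP. Ptgs2 was 1.28 higher under APAP at 6 h on the log2 scale, and Ptges was 0.39 higher under APAP at 24 h.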

How the results depend on the processing

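Across 1446 member differences recomputed under alternatives, 1404 kept their side of the threshold, 22 were no longer called and 20 were newly called. Of the 1446, 0 reversed in sign with a value past an unadjusted p of 0.05. Among the 1404, 120 changed sign with neither value past it. The members called under APAP against control at 6 h were 2 with a replicate block within each time, 0 without number 32 at 6 h, and 0 to 1 leaving out arrays or numbers. Under APAP against control at 24 h they were 0 with a minimum size of 0.5 log2 units, 2 with array weights, median centring, the filter on dim genes, the 6 arrays alone or a trended robust prior, 4 with the block within each time, and 0 to 1 leaving out arrays or numbers. Under AMAP at 6 h they were 1 with the replicate block and 2 with it within each time. Between APAP and AMAP at 6 h they were 0 with the 6 arrays alone and 0 to 1 leaving out arrays or numbers. At 24 h they were 0 with the minimum size, 2 with array weights, the dim filter, the random block or the replicate block, 3 with the block within each time, and 0 to 1 leaving out arrays or numbers. The replicate block changed no other member call. The block within each time and the omission of number 32 at 6 h were chosen after the data were seen. The dim filter left 6 of the 8 members and 15219 genes. Of all genes, 498 were called under APAP at 6 h (65 to 1112 over the alternatives), 1860 at 24 h (437 to 3141), and 141 and 928 between the isomers at 6 and 24 h (18 to 394 and 195 to 1896). The replicate block took the count under AMAP from 91 to 200 at 6 h and from 145 to 345 at 24 h. Fewer genes or arrays tested set some of these changes by construction; otherwise the cause was not tested. Dim probe sets limit what can be said of Pla2g4a and Ptger2. The called pathway genes Lpcat2, Aloxe3, Akr1c18 and Cbr3 averaged 5.34, 5.82, 5.90 and 6.96. These means lay under the lowest array median of 7.25, so the same caution applies to them.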
